A study of Rattus norvegicus with 9 samples.

Results

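The transcriptomes compared here are those of rat pXEN cells grown in a serum-free medium with Lif, called LPE, and in a traditional serum-containing medium, called T. The comparison takes the 3 LPE libraries and the 3 T libraries, as their labels give them, which are 6 of the 9 libraries of the series. pXEN cells are primitive extraembryonic endoderm stem cells, and a single line, RX1, derived from the rat strain WKY, was used throughout. The T cultures were kept on fibronectin (100 ng/ml) in DMEM/MCDB with LA-BSA, ITS, ascorbic acid, 2% fetal bovine serum, 0.5 µM dexamethasone and the factors Pdgf, Egf and Lif (10 ng/ml). The LPE cultures were kept on collagen I (10 µg/ml) in a mix of DMEM/F12 and Neurobasal with the supplements N2 and B27 and the same factors at 10 ng/ml, without serum or dexamethasone. Both contained β-mercaptoethanol. The remaining 3 libraries (CPE), which replace Lif with 1 µM Chir99021, entered the fit and are used only at the end, for a few genes. Serum, glucocorticoid, basal medium, supplements and coating changed together between T and LPE, so their parts in any difference cannot be told apart. Whether the 3 libraries of a medium came from separate cultures is not stated, so the p-values rest on a spread between libraries that may be technical.

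Primitive endoderm is the layer that forms beside the pluripotent epiblast before implantation and gives rise to the visceral and parietal endoderm of the yolk sacs. The parietal branch is known for laying down a thick basement membrane of laminin, collagen IV and nidogen, and the visceral branch for taking up nutrients through receptors such as cubilin and megalin. Serum carries lipoproteins, fatty acids, growth factors of the Bmp family and matrix proteins, whereas a defined medium gives cells only what its supplements contain.

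Each T library held 1698764 to 2161228 reads on the gene strand and each LPE library 3119049 to 3233526, and 1 count was worth 0.463 to 0.589 CPM in T and 0.309 to 0.321 CPM in LPE before TMM scaling (CPM, gene reads scaled by library size and, in all values below, by the TMM factor). The LPE libraries held more gene reads but were more variable and listed fewer genes, with 8607 to 9314 genes detected against 10143 to 10621 in T. Among genes of low count, scaled by gene reads without the TMM factor, pairs of LPE libraries had 9.93 to 15.6 times the variance of counting. Pairs of T libraries had 1.35 to 2.05 times that variance. For such genes a bound from counting error therefore understates the error of a 0 in LPE. The median standard deviation of log2(CPM + 2) over 3 libraries was 0.343 in T and 0.892 in LPE for genes of 1 to 10 CPM, and 0.0982 and 0.134 for genes above 200 CPM. A first principal component with 55.9% of the variance separated the media, and the next, with 23.1%, set LPE replicate 2 apart (score 46.6, against -33.3 and -30.5 for the other LPE libraries). Low levels in LPE are therefore read with caution below.

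**Figure D1:**
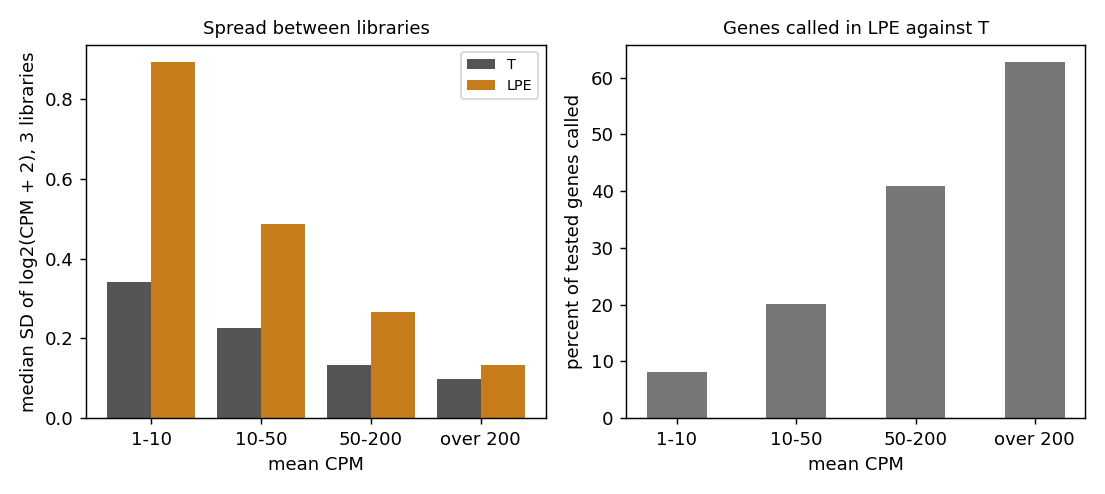
Median standard deviation of log2(CPM + 2) over the 3 libraries of each medium (left; T grey, LPE orange) and percent of tested genes called (right), by mean CPM. LPE is the more variable medium in all 4 ranges, from 0.892 against 0.343 at 1 to 10 CPM to 0.134 against 0.0982 above 200 CPM, and the share called rises from 8.2% to 62.7%.

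Of 9130 genes tested, 2716 (29.7%) differed between LPE and T at an adjusted p under 0.05 by edgeR's quasi-likelihood F test with Benjamini-Hochberg adjustment, which is the meaning of rose, fell and called from here on, and the adjusted p-values of genes are from this test unless another is named. They split into 1373 that rose in LPE (15.0% of those tested) and 1343 that fell (14.7%), and 1366 (15.0%) moved at least 2-fold, 768 up and 598 down. The 3 LPE libraries lay wholly above or wholly below the 3 T libraries in 4317 genes (47.3%). At 4-fold the directions were even, 174 each way, and at 8-fold 112 fell and 50 rose. The larger falls include genes with 0 counts in LPE, whose fitted fold depends on the prior count and is no bound. Leaving out T replicate 3 lowered the number that fell to 892. These shares are the background against which each gene group below is read. They are not matched for level, and the share called rose from 8.2% at 1 to 10 CPM to 62.7% above 200 CPM. A list of abundant genes can therefore hold more calls, and a list of scarce genes fewer, through level alone.

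**Figure D2:**
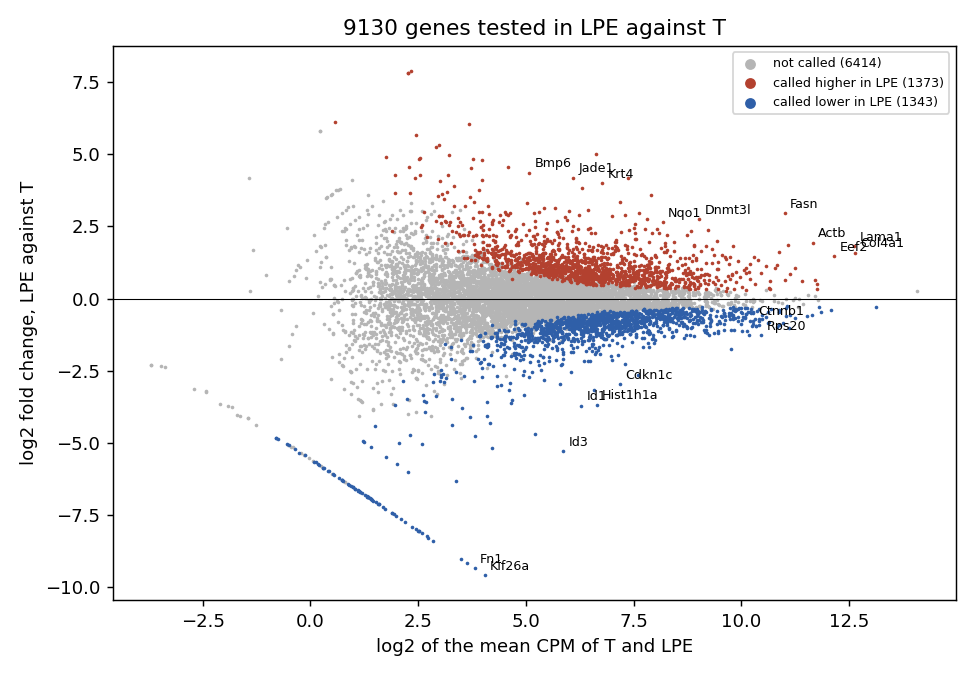
Fitted log2 fold change, LPE against T, of each tested gene over the log2 of its mean CPM, with called genes in red (higher) and blue (lower). The diagonal of points at the lower left holds genes with 0 counts in every LPE library, whose fitted fold depends on the prior count, and genes at high CPM such as Lama1, Col4a1 and Fasn lie above 0.

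**Figure D3:**
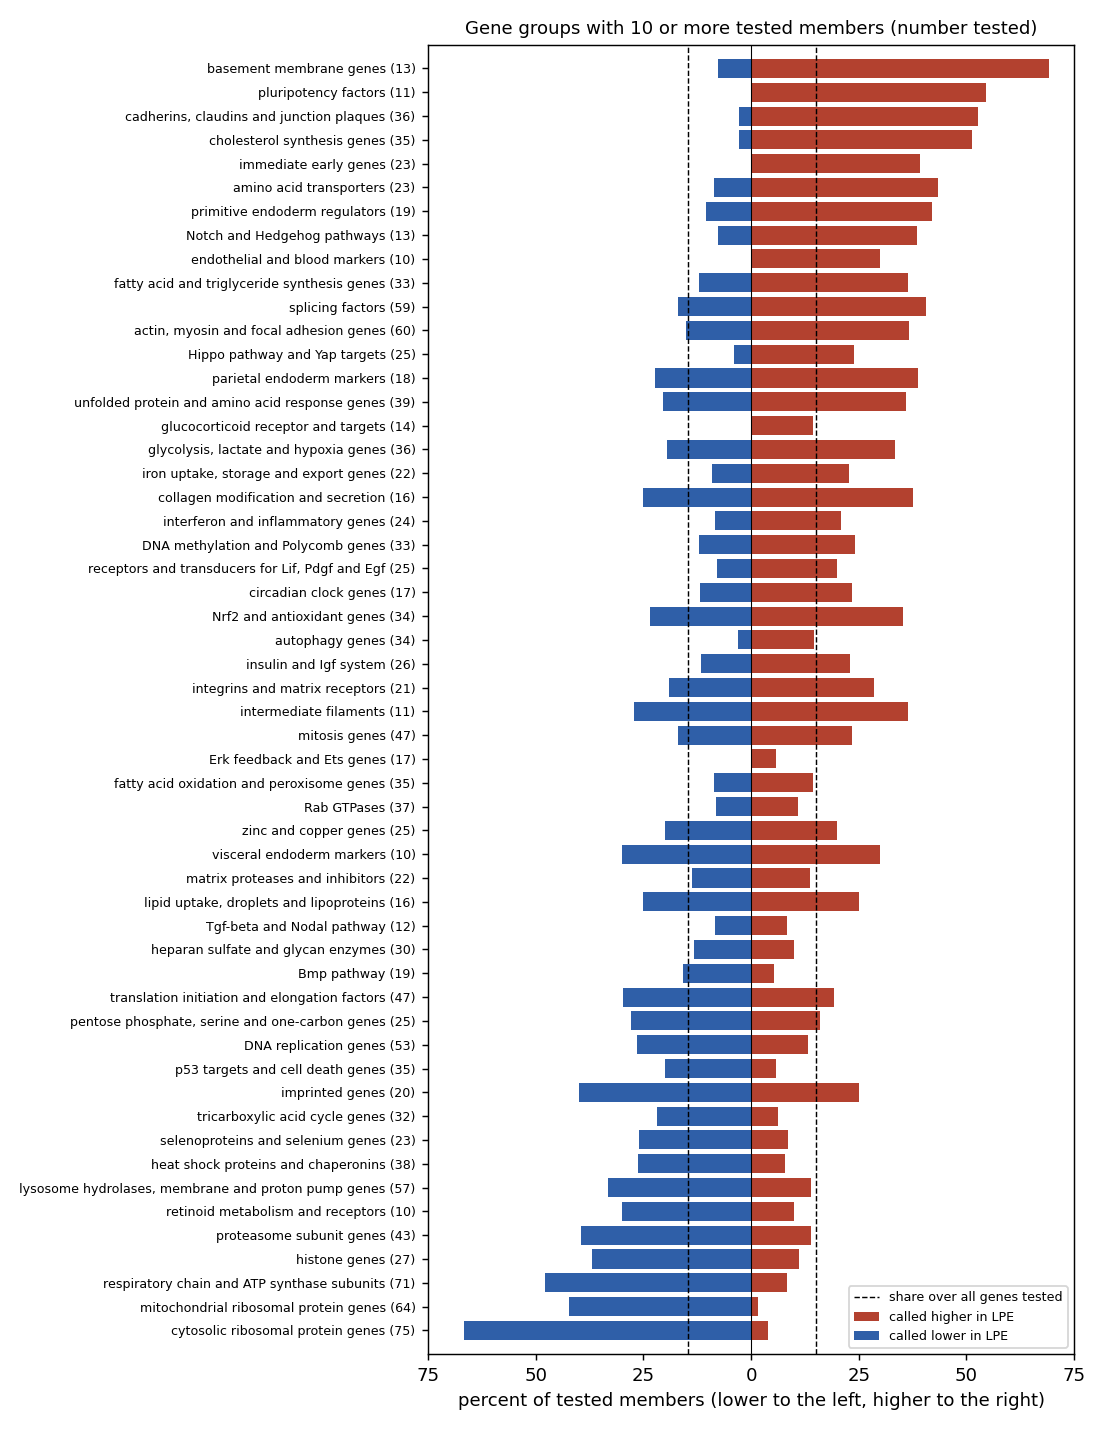
Percent of the tested members of each gene group that were called higher (red, right) or lower (blue, left) in LPE, with the shares over all genes tested as dashed lines (15.0% and 14.7%). Basement membrane, pluripotency, junction and cholesterol genes stand at the top, and cytosolic ribosomal, mitochondrial ribosomal and respiratory chain genes at the bottom.

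Endoderm identity genes were expressed in both media. In bulk samples fewer cells of a type and less RNA per cell cannot be told apart, here and for all markers. Among 19 genes listed for primitive endoderm there were 8 rises and 2 falls, and 9 were not called. Their summed level was 9438 to 10491 CPM in T and 22168 to 26050 CPM in LPE. Most of that sum in LPE comes from members not named in this paragraph, so it does not give the level of the transcription factors named here. Lists can share members, so these counts and sums are not separate evidence from those of other lists. Gata4, a founding transcription factor of the lineage, stood at 855, 996 and 859 CPM in T and 861, 787 and 859 CPM in LPE and was not called (adjusted p = 0.411), and its libraries overlapped between the media. Gata6 and Foxa2, named like Gata4 after their values were seen, rose by log2 0.87 and 1.05 with no overlap, Foxa2 going from 57.3, 53.9 and 51.6 CPM to 104, 114 and 119.6 CPM. Klf5, a transcription factor of the early blastocyst lineages, had 227, 186 and 224 CPM in T and 789.8, 725 and 741 CPM in LPE (log2 fold change 1.82, SE 0.15, adjusted p = 3.1e-07). The 3 LPE libraries were close together and all far above the T libraries. Sox17, which sustains the endoderm programme, was not called (1031, 1367 and 1172 CPM in T and 1035, 890.2 and 1026 CPM in LPE, adjusted p = 0.111).

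Markers of the endoderm branches moved both ways. Visceral markers gave 3 rises and 3 falls among 10 tested, and 6 of the 19 in the tables had 0 counts in all 6 libraries, among them Afp, Ttr and Apoa4, the secreted products that mark mature visceral endoderm. The endocytic receptor gene Cubn (cubilin) had 915, 576 and 912 CPM in T and 1465, 1801 and 1318 CPM in LPE. Lrp2 (megalin) had 111, 71.8 and 87 CPM in T and 196, 179 and 196 CPM in LPE. Both rose, by log2 0.93 and 1.08, while Amn, which anchors cubilin in the membrane, fell from 117, 134 and 135 CPM to 47.9, 52.5 and 81.4 CPM (log2 fold change -1.09, SE 0.25, adjusted p = 0.00338). The parts of this receptor complex thus moved in opposite directions, with no library of one medium inside the range of the other. Of 18 parietal markers 7 rose and 4 fell. The proteoglycan core gene Srgn had 188, 170.3 and 224 CPM in T and 994, 955 and 1063 CPM in LPE (log2 fold change 2.37, SE 0.19, adjusted p = 3.3e-07), whereas Pth1r, the parathyroid hormone receptor of parietal endoderm, fell from 684, 725 and 686 CPM to 428, 352 and 408 CPM. Thbd, a surface anticoagulant of parietal cells named after its values were seen, was not called (585, 573 and 583 CPM in T and 667, 504 and 667 CPM in LPE).

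Most tested genes of the basement membrane rose. Rises numbered 9 of 13 tested, with 1 fall and 3 not called, and their median log2 fold change was 1.20, beside -0.03 over all genes. Their summed level was 9469 to 11589 CPM in T and 27588 to 31639.7 CPM in LPE. Lama1, the alpha chain of the embryonic laminin, had 3269, 2212 and 2860.1 CPM in T and 8726, 11158 and 9321 CPM in LPE (log2 fold change 1.81, SE 0.13, adjusted p = 1.4e-07). Its partner Lamc1 had 1110.4, 659.6 and 1049.9 CPM in T and 3157, 3872 and 3231 CPM in LPE (log2 fold change 1.86, SE 0.16, adjusted p = 6.6e-07), and Col4a1, a collagen IV chain, 3371, 2884 and 3357 CPM in T and 8935, 10383 and 9436 CPM in LPE (log2 fold change 1.58, SE 0.08, adjusted p = 3.5e-09). For all 3 genes the LPE libraries lay well above the T libraries, and replicate 2 was the lowest T library and the highest LPE library. Nid2, a nidogen that links laminin to collagen IV, went from 31.1, 34.7 and 46 CPM to a mean of 277 ± 46.2 CPM (SD, n = 3), with every LPE library above every T library. Agrn, a heparan sulfate proteoglycan of the same membrane, was not called (38.2, 36.5 and 46 CPM in T and 39, 58.7 and 47.1 CPM in LPE, adjusted p = 0.545). Parietal and basement membrane lists share members, and the parietal count is no separate evidence.

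The enzymes that modify collagen split. Of 16 tested, 6 rose and 4 fell. The lysyl hydroxylase genes Plod1 (182, 112 and 161 CPM in T and 701, 741 and 675 CPM in LPE) and Plod3 (64.4, 37.6 and 74.9 CPM in T and 270.4, 174 and 183 CPM in LPE) rose by log2 2.21 and 1.82, as did P4hb, a subunit of prolyl 4-hydroxylase (0.81). The prolyl 3-hydroxylase family genes P3h2 (480.2, 515 and 493 CPM in T and 318, 250.2 and 270.2 CPM in LPE) and P3h4 fell by log2 values of -0.83 and -1.39. Serpinh1, the collagen chaperone Hsp47, fell by a small amount with no overlap, from 4713, 5224 and 4777 CPM to 3821, 3632 and 3785 CPM (log2 fold change -0.39, SE 0.08, adjusted p = 0.00269). Colgalt1, which adds galactose to hydroxylysine, was not called (714, 701 and 686 CPM in T and 718, 693 and 631 CPM in LPE). Among matrix proteases and inhibitors, Bmp1, the procollagen C-proteinase, rose from 13.6, 14.5 and 15.8 CPM to 37.7, 73 and 52.6 CPM. Timp3, an inhibitor bound to matrix, rose from 22.4, 23.7 and 23.7 CPM to 77.7, 126 and 50.6 CPM. Only 3 of the 22 tested rose and 3 fell, shares of about the background.

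Cell-matrix receptors also changed in both directions. Of 21 integrins and matrix receptors 6 rose and 4 fell, a total of 10 that came to 6 without T replicate 2. Itgb1, the beta chain common to most matrix integrins, had 463, 444 and 518 CPM in T and 886, 612 and 753 CPM in LPE (log2 fold change 0.66, SE 0.12, adjusted p = 0.00083). Itga6, a laminin receptor chain named after its values were seen, rose from 96, 106 and 117 CPM to 306, 297 and 321 CPM. The syndecan gene Sdc4, a heparan sulfate co-receptor of focal adhesions, had 22.9, 20.8 and 33.5 CPM in T and 299, 269.8 and 223 CPM in LPE (log2 fold change 3.34, SE 0.24, adjusted p = 1.3e-07), a wide gap with no overlap. Itgb6 rose by log2 2.41, and Itgb5, the vitronectin receptor chain, fell from 171, 201 and 152 CPM to 77.4, 82.4 and 86.5 CPM. Itga5, the fibronectin receptor chain, was not called (39.8, 27.8 and 32.1 CPM in T and 16.9, 33.9 and 14.4 CPM in LPE, adjusted p = 0.253), but was called lower without LPE replicate 2 (adjusted p = 0.0327). The collagen receptor chain Itga1 was at or under 2.32 CPM in all 6 libraries and was not tested. Fn1, the gene of fibronectin itself, had 35.5, 24.3 and 24.6 CPM in T and 0 counts in every LPE library, at least 29.6-fold lower when each empty library is set at 3 counts, a bound that covers counting error only.

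Junction genes moved mostly upward where they were called. Of 36 tested, 19 rose and 1 fell, with a median log2 fold change of 0.79. Jup (plakoglobin), a catenin of adherens junctions and desmosomes, had 62.8, 41.1 and 57.2 CPM in T and 326, 343 and 289.7 CPM in LPE (log2 fold change 2.57, SE 0.19, adjusted p = 1.8e-07). Cdh1 (E-cadherin), the cell adhesion molecule of epithelial adherens junctions, had 25.1, 6.95 and 19.5 CPM in T and 348, 337 and 252 CPM in LPE. The cadherin-binding catenin genes Ctnna1 and Ctnnd1, the claudin Cldn6, the tight junction gene Ocln and the adhesion gene Epcam, named after their values were seen, rose by log2 1.48, 1.30, 1.71, 1.00 and 1.03. The member that fell was Ctnnb1 (beta-catenin), from 1503, 1634 and 1502 CPM to 851, 1041 and 829 CPM (log2 fold change -0.77, SE 0.11, adjusted p = 6.3e-05). Catenins of the same complex therefore did not move alike. Prkci, a polarity kinase, was not called (201, 214 and 188 CPM in T and 182, 175 and 172 CPM in LPE).

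Keratins and the actin cytoskeleton changed too. Krt4, a keratin of stratified epithelia, had 6.55, 15.6 and 16.3 CPM in T and 211, 186 and 219 CPM in LPE (log2 fold change 3.99, SE 0.32, adjusted p = 3.3e-07), a rise from low levels that separated all 6 libraries by medium. Krt8, of the keratin pair of simple epithelia, fell from 264, 302 and 224 CPM to 41.2, 41.3 and 79.2 CPM, and its partner Krt18 from 181, 136 and 123 CPM to 58.5, 75.2 and 52.9 CPM. Both have close copies in the genome, and multimapping reads stayed out of the counts, so their levels are uncertain. Vim (vimentin) rose from 272, 205 and 248 CPM to 515, 541 and 447 CPM. Among 60 actin, myosin and focal adhesion genes 22 rose and 9 fell. The actin-severing protein gene Gsn had 39.8, 63.7 and 59.5 CPM in T and 279, 245 and 321 CPM in LPE (log2 fold change 2.37, SE 0.18, adjusted p = 2.4e-07). Scin, its relative, went from 0.546, 1.74 and 0.93 CPM to 31.6, 41.3 and 18.6 CPM, and the stress-fibre genes Actn1 and Pdlim1 rose by log2 2.26 and 3.06. Actb, beta-actin, which also has close copies, had 1397, 1312 and 1319.6 CPM in T and 5742, 4859 and 4734 CPM in LPE (log2 fold change 1.93, SE 0.09, adjusted p = 3.5e-09), so it was not at a constant level between the media. The actin monomer-binding gene Tmsb4x fell from 153, 134 and 134 CPM to 64.2, 36.1 and 34.3 CPM, and Ezr (ezrin) was not called (601, 698 and 577 CPM in T and 729, 835 and 661 CPM in LPE).

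Genes of cholesterol supply were higher in LPE. Of 35 tested, 18 rose, 1 fell and 16 were not called, the median log2 fold change was 0.61, and the summed level was 4551 to 4739.9 CPM in T and 8195 to 8478 CPM in LPE. Npc1, which exports cholesterol from lysosomes, had 84.6, 55 and 77.7 CPM in T and 327, 287 and 286 CPM in LPE (log2 fold change 2.05, SE 0.16, adjusted p = 2.9e-07). Srebf2 and Insig1 were named after their values were seen. Srebf2, the transcription factor that controls the pathway, rose by log2 1.40, from 243, 260.02 and 222 CPM to 627, 679 and 600.3 CPM. Insig1, which holds Srebf2 inactive when sterols are plentiful, rose by log2 1.24, from 339, 439 and 369 CPM to 1009, 797 and 895 CPM. The 3 LPE libraries lay above the 3 T libraries for both. The member that fell was Nr1h2, the sterol-sensing receptor LXR-beta (93.3, 137 and 109 CPM in T and 35.8, 64.3 and 42.6 CPM in LPE). Fdps was not called (864, 755 and 756 CPM in T and 945, 979 and 844 CPM in LPE), and Abca1, a cholesterol exporter, had a fitted log2 value of -0.74 that did not pass the test.

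The promoters of 3 of the genes that rose are printed because the factor NF-Y, which binds CCAAT, is known to act with Srebf2 at sterol genes, and they let a reader see those letters in context. They are RefSeq windows of the build GRCr8, 250 bases before to 50 after the gene start, read 5′ to 3′ on the gene's strand, with CCAAT or its reverse complement ATTGG in capitals. Hmgcs1 lies on the plus strand at chr2:53382054-53382353, Insig1 on the minus strand at chr4:8057720-8058019 and Srebf2 on the plus strand at chr7:115543057-115543356.
Hmgcs1: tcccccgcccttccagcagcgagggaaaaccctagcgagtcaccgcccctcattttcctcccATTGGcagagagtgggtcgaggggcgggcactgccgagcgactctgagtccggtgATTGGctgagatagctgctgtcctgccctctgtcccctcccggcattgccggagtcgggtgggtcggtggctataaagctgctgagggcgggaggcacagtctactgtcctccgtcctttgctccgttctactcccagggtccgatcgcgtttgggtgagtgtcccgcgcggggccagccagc
Insig1: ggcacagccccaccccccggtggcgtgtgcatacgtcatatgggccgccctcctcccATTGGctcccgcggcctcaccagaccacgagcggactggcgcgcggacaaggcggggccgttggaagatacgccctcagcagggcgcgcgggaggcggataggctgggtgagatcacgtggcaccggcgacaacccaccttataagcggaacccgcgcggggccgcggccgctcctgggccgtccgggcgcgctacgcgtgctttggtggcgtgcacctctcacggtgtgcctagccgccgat
Srebf2: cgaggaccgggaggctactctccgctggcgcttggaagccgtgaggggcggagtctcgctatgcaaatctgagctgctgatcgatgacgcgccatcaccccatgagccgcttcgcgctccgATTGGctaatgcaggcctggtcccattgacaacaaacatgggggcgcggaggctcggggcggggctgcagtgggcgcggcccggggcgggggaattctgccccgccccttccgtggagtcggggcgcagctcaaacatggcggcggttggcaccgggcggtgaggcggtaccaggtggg
Hmgcs1, the synthase that feeds the pathway, had 139, 128 and 150.2 CPM in T and 318, 316 and 306 CPM in LPE (log2 fold change 1.17, SE 0.13, adjusted p = 7.3e-06). Its window holds 2 copies and each of the others holds 1, all on the opposite strand. CCAAT, searched on both strands, was present in 21 of 29 cholesterol genes with a promoter in the table (72.4%), in 23 of 34 fatty acid and triglyceride genes (67.6%) and in 10873 of all 27457 genes (39.6%), counting a gene if any of its windows holds it. Among the 14 cholesterol genes that rose and have a window, 9 (64.3%) hold it. The sterol element searched as TCACNCCAC was found in 0 of the 29 and 0 of the 34 genes and in 344 (1.25%) of all genes, which says only that these letters are not in the windows of either group, so the motifs overlapped in none of them. A match is a description, not a binding site.

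**Figure D4:**
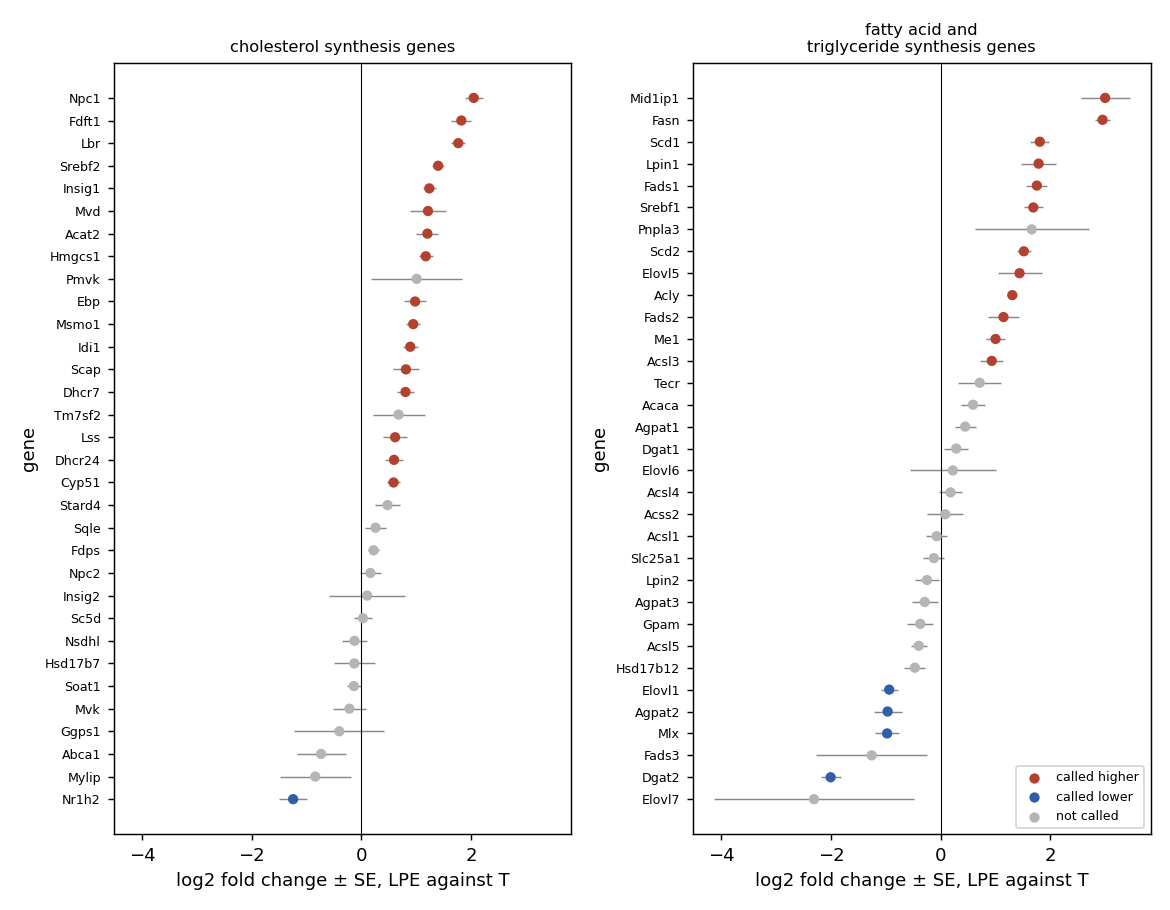
Log2 fold change, LPE against T, with its standard error for tested genes of cholesterol synthesis (left) and fatty acid and triglyceride synthesis (right). Among the cholesterol genes drawn Nr1h2 alone is called lower, while the fatty acid genes hold 12 called higher and 4 called lower, among them Dgat2.

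Genes of fatty acid and triglyceride synthesis were called higher more often than lower. Of 33 tested, 12 rose, 4 fell and 17 were not called. Fasn, the fatty acid synthase, had 527, 405 and 484 CPM in T and 3617, 3969 and 3365 CPM in LPE (log2 fold change 2.95, SE 0.13, adjusted p = 2.2e-09). Acly, which makes its acetyl-CoA precursor, and Srebf1, its transcription factor, both named after their values were seen, rose by log2 1.30 and 1.69, and the desaturase gene Scd1 had 265, 256 and 254 CPM in T and 959, 1001 and 749.7 CPM in LPE. Dgat2, which completes triglycerides, fell from 206, 225 and 179 CPM to 55.9, 48.8 and 46.8 CPM (log2 fold change -2.01, SE 0.18, adjusted p = 9.8e-07). In the separate list of lipid uptake, droplets and lipoproteins 4 rose and 4 fell of 16, and the 8 calls came to 5 without T replicate 2 or 3 and after thinning each library to the gene reads of the shallowest. Plin2, the coat of lipid droplets, fell from 76.9, 70.7 and 84.6 CPM to 40.9, 27 and 39.7 CPM, and Scarb2, a lysosomal relative of the scavenger receptors, rose from 83.5, 66.6 and 98.1 CPM to 289.9, 229.7 and 222 CPM. The transporter gene Slc27a3 and the carrier gene Fabp3 fell by log2 values of -2.82 and -1.09, Fabp3 from 1144, 1011 and 1022 CPM to 484, 448 and 559.9 CPM. Apoe, the apolipoprotein, was not called (2419, 2744 and 2671 CPM in T and 2442, 2650.03 and 2658 CPM in LPE). Acsl6, an acyl-CoA synthetase, rose from 2.18, 0.579 and 3.25 CPM to 28.4, 33.9 and 22.1 CPM. Fatty acid oxidation and peroxisome genes gave 5 rises and 3 falls of 35, below the background share. Catalase (Cat) rose by log2 1.68, and Hadh fell from 113, 84.5 and 81.4 CPM to 15.3, 19.9 and 21.2 CPM.

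Central carbon genes were redistributed. Of 36 glycolysis, lactate and hypoxia genes 12 rose and 7 fell. Hk1, which traps glucose in the cell, had 8.18, 7.53 and 8.83 CPM in T and 63.6, 48.2 and 82.7 CPM in LPE (log2 fold change 2.98, SE 0.33, adjusted p = 8.7e-06), and Aldoa 156, 125 and 145 CPM in T and 571, 607 and 467 CPM in LPE. Pkm, the last step of glycolysis, fell from 1576, 1744 and 1619 CPM to 741, 679 and 612 CPM, and Ldhb, a lactate dehydrogenase subunit, from 27.3, 23.2 and 23.2 CPM to 0, 0 and 4.17 CPM, with 0 counts in 2 LPE libraries. Eno1, which acts in glycolysis just before Pkm, was not called (1243, 1199 and 1249 CPM in T and 1231, 1117 and 1329 CPM in LPE). In the pentose phosphate pathway Tkt rose (169.7, 160.4 and 176 CPM in T and 528, 525 and 518 CPM in LPE) and Pgls fell (60, 76.4 and 77.2 CPM in T and 15.3, 11.5 and 18.3 CPM in LPE), while Phgdh, the entry to serine synthesis, fell by a log2 value of -1.20. That pathway list gave 4 rises and 7 falls of 25, and 6 calls in all without T replicate 2. Cs, citrate synthase, had 91.7, 74.7 and 84.2 CPM in T and 444, 439 and 323 CPM in LPE (log2 fold change 2.27, SE 0.16, adjusted p = 1.4e-07), but of 32 tricarboxylic acid cycle genes 2 rose and 7 fell, a share near the background, with Suclg1 and Mdh1 among the falls (-1.15 and -0.94).

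Genes for the protein and energy machinery were called lower in LPE far more often than higher. Of 75 cytosolic ribosomal protein genes 3 rose and 50 fell, with a median log2 fold change of -0.51. Their summed level was 72884 to 86707 CPM in T and 55718 to 58626 CPM in LPE. The share called, 70.7%, stands beside 62.7% of all tested genes above 200 CPM. Rps20 had 2107, 1642 and 2212 CPM in T and 846, 784 and 840.4 CPM in LPE (log2 fold change -1.27, SE 0.11, adjusted p = 5.5e-07), and Rps2 and Rplp0 fell by log2 values of -0.59 and -0.61. Rpl8 and Rps28 were among the rises, Rpl8 going from 50.2, 43.4 and 52.1 CPM to 75.4, 105 and 97.8 CPM. Ribosomal protein genes have many processed copies, so their counts are uncertain. Reads mapping to several places made up 64.9% to 67.6% of all reads in T and 54.25% to 59.9% in LPE, and the part of this difference in the ribosomal counts was not tested. Of 64 mitochondrial ribosomal genes 27 fell and 1 rose (median -0.64), such as Mrpl17 (266, 274 and 269 CPM in T and 132, 81.7 and 104 CPM in LPE). That total of 28 varied between fits, with 9, 14 and 15 called without T replicate 1, 2 and 3 and 18 without LPE replicate 1.

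The same direction held for the inner mitochondrial membrane. Of 71 respiratory chain and ATP synthase subunits 34 fell and 6 rose (median -0.57). Atp5l, a subunit of ATP synthase, had 305, 203 and 301 CPM in T and 127, 101 and 97.1 CPM in LPE (log2 fold change -1.31, SE 0.17, adjusted p = 3.8e-05), and Cox7b of cytochrome oxidase fell by a log2 value of -1.43, while Uqcrb of complex III rose from 24, 20.8 and 18.6 CPM to 53.7, 71.5 and 66 CPM. Proteasome subunits gave 17 falls and 6 rises of 43, with Psmd8 at 491, 504 and 467 CPM in T and 165, 205 and 224 CPM in LPE. Translation factors did not move as one, 9 up and 14 down of 47. Eef2, which moves the ribosome along the messenger, had 2493, 2359 and 2398 CPM in T and 6940.4, 6765 and 6277 CPM in LPE (log2 fold change 1.46, SE 0.07, adjusted p = 2.2e-09), and Eif5a fell from 2955, 3140.5 and 2798 CPM to 1494, 1415 and 1519 CPM. Splicing factors leaned upward, 24 rises and 10 falls of 59, with the core spliceosome gene Prpf8 at 340.5, 179 and 315 CPM in T and 1128, 1196 and 967 CPM in LPE and Srsf5 up by log2 1.69. Transcript length and GC content were not analysed here, and their parts in these group shifts were not tested.

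Amino acid transporters were called mostly higher, and the stress responses split. Of 23 transporters 10 rose and 2 fell (median 0.55). Slc1a5, a glutamine carrier, had 42.6, 27.2 and 30.2 CPM in T and 156, 168 and 159 CPM in LPE (log2 fold change 2.27, SE 0.23, adjusted p = 3.2e-06), and the large neutral amino acid carrier Slc7a5 rose by log2 1.47. Slc38a4, a carrier of small neutral amino acids, fell from 67.7, 77 and 58.1 CPM to 20.1, 21.1 and 8.33 CPM. Unfolded protein and amino acid response genes gave 14 rises and 8 falls of 39. Herpud1, of endoplasmic reticulum degradation, rose (18, 12.2 and 22.3 CPM in T and 91.4, 105 and 67.9 CPM in LPE), whereas Xbp1, a transcription factor of that response, fell (175, 179 and 179 CPM in T and 90.5, 86.4 and 66 CPM in LPE), so the list has no single direction. Heat shock proteins gave 10 falls, led by Bag1 (-1.53) and Hspb8 (482, 492 and 459 CPM in T and 189, 194 and 184 CPM in LPE), and 3 rises of 38, among them Ahsa1 (1.12).

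Antioxidant genes moved in both directions by large amounts. Of 34 Nrf2 and antioxidant genes 12 rose and 8 fell. Nqo1, a quinone reductase and classical Nrf2 target, had 88.9, 74.1 and 75.8 CPM in T and 428, 513 and 551 CPM in LPE (log2 fold change 2.64, SE 0.17, adjusted p = 3.2e-08), and Osgin1 went from about 1 count per library in T (0.546, 0.579 and 0.465 CPM) to 26.8, 18.3 and 8.65 CPM. Prdx6 had 80.2, 48.1 and 62.8 CPM in T and 304, 351 and 267 CPM in LPE, but its relative Prdx1 fell from 1512, 1437 and 1619 CPM to 697, 600.5 and 815 CPM (log2 fold change -1.11, SE 0.11, adjusted p = 2.2e-06). The peroxiredoxins thus parted, each with no overlap between media. Txn1, thioredoxin, fell by a log2 value of -1.03, and Nfe2l2, which encodes Nrf2, was not called (163, 164 and 179 CPM in T and 153, 160.1 and 141 CPM in LPE). Among 23 selenoprotein genes 6 fell and 2 rose, a total that was 5 without T replicate 2. Gpx4, which guards membranes against lipid peroxides, fell from 205, 198 and 179.9 CPM to 79.6, 72.7 and 118 CPM, and Txnrd1, thioredoxin reductase, rose by log2 1.61.

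Metal and lysosome genes followed. The ferritin chains Fth1 (258, 312 and 276 CPM in T and 674, 639.97 and 796 CPM in LPE) and Ftl1 (330.1, 372 and 327 CPM in T and 882, 867 and 687 CPM in LPE), which store iron, rose, and the transferrin receptor gene Tfrc, which brings it in, fell from 378, 387 and 412 CPM to 251, 205 and 239 CPM (log2 fold change -0.76, SE 0.14, adjusted p = 0.00066). Within 22 iron genes 5 rose and 2 fell, a share near the background. Zinc and copper genes gave 5 rises and 5 falls of 25. The copper pump gene Atp7b rose from 5.46, 5.21 and 6.97 CPM to 65.5, 61.2 and 52.2 CPM, and the zinc importer Slc39a4 had 18.6, 16.8 and 26 CPM in T and 109.96, 136 and 104 CPM in LPE (log2 fold change 2.497, SE 0.23, adjusted p = 9.8e-07). The zinc transporter genes Slc30a4 and Slc39a1 fell, Slc30a4 from 243, 269 and 233 CPM to 125, 84.2 and 139.7 CPM and Slc39a1 from 256, 258 and 209 CPM to 122, 137 and 129 CPM. Of 57 lysosome genes 19 fell and 8 rose. The proton pump subunits Atp6v0b (130.4, 139.6 and 123 CPM in T and 37.4, 37.6 and 35.6 CPM in LPE) and Atp6v1f fell by log2 values of -1.83 and -1.93, while the protease Ctsb rose from 36, 33.6 and 41.4 CPM to 539.6, 401 and 395 CPM. Autophagy genes gave 5 rises and 1 fall of 34, below the background share, with the initiator Becn1 up by log2 1.25 and Gabarapl1 the member that fell (-1.89).

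All 3 growth factors were present in both media, and their receptors were read first. Lifr, the Lif receptor, had 608, 555 and 629 CPM in T and 755, 750.00 and 777 CPM in LPE and was not called (adjusted p = 0.0816), although its libraries did not overlap. It was called higher by DESeq2, limma voom, a fit of the 6 libraries alone and genes of at least 50 CPM (adjusted p = 0.0067 to 0.0426). Il6st, the co-receptor gp130, rose (235, 159 and 239 CPM in T and 397, 372 and 413 CPM in LPE; log2 fold change 0.90, SE 0.15, adjusted p = 0.00036). Pdgfra fell from 472, 437 and 483 CPM to 287, 266 and 316 CPM (log2 fold change -0.68, SE 0.12, adjusted p = 0.00051), and Pdgfrb had 0 counts in all libraries. Egfr had 0 counts except in T replicate 2 (1.16 CPM). Among its relatives, Erbb2 had 12, 11.6 and 10.2 CPM in T and 31.6, 19 and 34.9 CPM in LPE and Erbb3 8.73, 4.63 and 0.93 CPM in T and 20.1, 21.4 and 40.7 CPM in LPE, and both rose (1.34 and 2.55). Reads thus gave little sign of Egfr in either medium, within what a 0 count allows, up to 3 counts per library by counting error alone.

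Among the transducers, of 25 receptors and transducers tested 5 rose and 2 fell, close to the background share, and limma voom called 11. The adaptor gene Gab1 had 155, 151 and 145 CPM in T and 436, 426 and 513 CPM in LPE (log2 fold change 1.61, SE 0.12, adjusted p = 1.8e-07), and Sos1, an activator of Ras named after its values were seen, rose by log2 1.31. Ptpn11, the phosphatase Shp2, which binds Gab1, fell from 303, 312 and 324 CPM to 132, 129.6 and 158 CPM (log2 fold change -1.16, SE 0.14, adjusted p = 1.3e-05). Stat3, named likewise, was not called (497, 541 and 484 CPM in T and 449, 375 and 415 CPM in LPE, adjusted p = 0.0631). Immediate early genes gave 9 rises among 23 tested and the remaining 14 did not pass (median 0.79), with Klf10 at 13.1, 5.79 and 13.5 CPM in T and 59.5, 74.6 and 36.9 CPM in LPE and Btg1 at 54.6, 71.2 and 35.8 CPM in T and 281, 205 and 169.9 CPM in LPE. Ctgf was not called (148, 159 and 117 CPM in T and 208, 119 and 111 CPM in LPE).

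In the Bmp pathway Id1 and Id3 fell by large amounts. Id1, an inhibitor of basic helix-loop-helix factors and direct Bmp target, had 125, 174 and 137 CPM in T and 13.1, 15.2 and 4.81 CPM in LPE (log2 fold change -3.71, SE 0.54, adjusted p = 0.00011). Id3, of the same kind, had 107, 134 and 98.1 CPM in T and 7.99, 0 and 0.641 CPM in LPE (log2 fold change -5.29, SE 0.70, adjusted p = 4e-05). Every LPE library lay far below the lowest T library for both genes. Their relative Id2 was not called (10.4, 13.3 and 11.6 CPM in T and 9.27, 5.91 and 1.28 CPM in LPE, adjusted p = 0.156), and Id4 was called lower (74.8, 70.1 and 92.1 CPM in T and 18.2, 53.1 and 33 CPM in LPE), a call lost without any 1 T library or LPE replicate 1 or 3 (adjusted p = 0.0528 to 0.103). The receptor gene Bmpr2, named after its values were seen, rose from 67.1, 66.6 and 63.2 CPM to 143, 205 and 162 CPM, and Bmpr1a was not called (164, 166 and 194 CPM in T and 202, 117 and 201 CPM in LPE). Over the whole list 1 of 19 rose and 3 fell, below the background share. Bmp6, a ligand outside that list, went from 2.18, 2.9 and 4.18 CPM to 48.3, 68.1 and 77.9 CPM (log2 fold change 4.35, SE 0.43, adjusted p = 2.4e-06), and Pcsk6, a protease that activates such ligands, from 1.64, 0.579 and 2.79 CPM to 25.6, 37.9 and 26.6 CPM. The ligand genes Bmp2 and Bmp4 were at or under 9.59 CPM in all 6 libraries and were not called, although Bmp4 was called lower without LPE replicate 3 (adjusted p = 0.047).

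Other signalling genes were mixed. Smo, the Hedgehog transducer, fell from 49.7, 68.9 and 62.8 CPM to 11.8, 7.15 and 12.2 CPM (log2 fold change -2.54, SE 0.34, adjusted p = 4.4e-05), and Notch2 rose from 18, 18 and 18.6 CPM to 61.7, 52.5 and 32.7 CPM. The Notch and Hedgehog list had 5 rises and 1 fall of 13, and 3 calls in all without any 1 T library or LPE replicate 1. Cyp26a1, which degrades retinoic acid, fell from 64.9, 89.2 and 60.9 CPM to 0, 8.08 and 0 CPM. Rdh10, which helps make it, fell from 41.5, 49.2 and 40.9 CPM to 7.99, 0 and 9.29 CPM. Stra6, the receptor that takes up retinol, rose (66, 57.3 and 64.2 CPM in T and 135, 129.9 and 121 CPM in LPE). In the Hippo pathway the kinase gene Lats1 (60, 48.6 and 59.5 CPM in T and 225, 224 and 204 CPM in LPE) and the coactivator gene Wwtr1, or Taz (63.8, 84.5 and 79.5 CPM in T and 238, 256 and 257 CPM in LPE), rose, and F3, tissue factor, fell from 557, 613 and 605 CPM to 246, 214 and 274 CPM. That list had 6 rises and 1 fall of 25, a total close to the background share. Foxo1 and Foxo3, transcription factors held back by insulin signalling, rose by log2 1.18 and 1.34. Erk feedback genes gave 1 rise of 17 and Tgf-beta and Nodal genes 1 rise and 1 fall of 12, below the background share, and these counts ran from 0 to 3 and from 1 to 4 over the alternatives. Circadian clock genes gave 4 rises and 2 falls of 17, but 3 calls in all without any 1 T library. Among p53 targets and cell death genes 2 rose and 7 fell of 35, 5 calls in all without T replicate 1 or 3. Among Rab GTPases 4 rose and 3 fell of 37. In both lists the share called was below that of all genes.

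Dexamethasone, present only in T, acts through the receptor Nr3c1, whose gene had 45.8, 49.8 and 28.4 CPM in T and 27.8, 37.6 and 26 CPM in LPE and was not called (adjusted p = 0.307). Of 14 glucocorticoid genes tested 2 rose and the others did not pass the test, 14.3% called beside 29.7% of all genes. Glul, glutamine synthetase, was one of the rises (1631, 1639 and 1606 CPM in T and 2576, 2635 and 2323 CPM in LPE; log2 fold change 0.63, SE 0.09, adjusted p = 0.0001), in the medium without the steroid. Without T replicate 1, 2 or 3 or LPE replicate 1, and with each library thinned to the gene reads of the shallowest, the list held 1 call in place of 2.

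Several pluripotency-linked and chromatin genes rose. Of 11 pluripotency factors tested 6 rose and 5 did not pass (median 1.29), while 7 of the 24 in the tables had 0 counts in all 6 libraries, among them Nanog and Sox2. Tcl1a, an Akt cofactor of early embryos, went from 0, 0 and 0.93 CPM to 17.3, 29.2 and 30.1 CPM. Tfcp2l1, a factor of the naive state that Lif is known to induce, had 10.9, 8.11 and 7.44 CPM in T and 70, 74 and 68.6 CPM in LPE (log2 fold change 3.004, SE 0.33, adjusted p = 6.3e-06). Dnmt3l, the catalytically inactive partner of the de novo DNA methyltransferases, had 109.7, 126 and 168 CPM in T and 859, 988 and 881 CPM in LPE (log2 fold change 2.75, SE 0.17, adjusted p = 2.3e-08). These 3 genes separated the media completely, and Pou5f1 (Oct4), named after its values were seen, did not (232, 241 and 285 CPM in T and 234, 327 and 230.1 CPM in LPE). Uhrf1, which brings maintenance methylation to new DNA, had 85.1, 48.1 and 73.9 CPM in T and 385, 351 and 357 CPM in LPE (log2 fold change 2.40, SE 0.18, adjusted p = 1.8e-07). Dnmt3b was not called (187, 129.7 and 148 CPM in T and 197, 223 and 202 CPM in LPE, adjusted p = 0.065), although its libraries did not overlap, and limma voom, a fit of the 6 libraries alone, genes of at least 50 CPM and leaving out T replicate 1 called it higher (adjusted p = 0.0195 to 0.0486). DNA methylation and Polycomb genes together gave 8 rises and 4 falls of 33.

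Imprinted genes were called often, in both directions. Of 20 tested, 5 rose and 8 fell (65% called, beside 29.7% of all genes). Cdkn1c, a growth-restraining cell cycle inhibitor, had 246, 291 and 237 CPM in T and 38.4, 42.3 and 18.6 CPM in LPE (log2 fold change -2.96, SE 0.26, adjusted p = 7.5e-07), Peg3 107, 88.6 and 88.3 CPM in T and 24.9, 22.1 and 11.5 CPM in LPE (log2 fold change -2.27, SE 0.28, adjusted p = 2.4e-05), and Phlda2, a placental growth gene named after its values were seen, 144, 142 and 145 CPM in T and 53.7, 23.6 and 44.2 CPM in LPE. H19, a noncoding RNA, fell from 56.7, 61.4 and 51.6 CPM to 7.35, 9.01 and 0 CPM (log2 fold change -3.35, SE 0.53, adjusted p = 0.00021), a call lost in limma voom with spread set per medium (adjusted p = 0.0806). Mest, also named afterwards, rose from 34.9, 31.9 and 25.6 CPM to 98.4, 83.6 and 113 CPM, and RGD1566401, the table's symbol for Meg3, from 1.64, 0.579 and 0.93 CPM to 37.4, 23.3 and 15.4 CPM (log2 fold change 4.54, SE 0.67, adjusted p = 0.00012). Paternally and maternally expressed genes appear on both sides, since Peg3 and Mest are expressed from the paternal copy and H19 and Meg3 from the maternal copy. Gnas was not called (351, 352 and 285 CPM in T and 410.4, 381 and 339 CPM in LPE).

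Proliferation genes did not shift as a whole. DNA replication genes gave 7 rises and 14 falls of 53, and mitosis genes 11 and 8 of 47. Top2a, which untangles chromosomes, had 215, 170.3 and 228 CPM in T and 759, 786 and 697 CPM in LPE (log2 fold change 1.87, SE 0.12, adjusted p = 5e-08), and Rrm2, of nucleotide supply, 895, 956 and 919 CPM in T and 3186, 2657 and 2679.8 CPM in LPE. Bub3, a spindle checkpoint gene, and Ube2s, of the anaphase complex, fell by log2 values of -0.997 and -1.41, and Mcm4 was not called (807, 895 and 803 CPM in T and 729, 715 and 665 CPM in LPE). Of 27 histone genes 10 fell and 3 rose, 8 calls in all without T replicate 3. Hist1h1a, a linker histone, had 230.3, 122 and 205 CPM in T and 9.59, 25.5 and 8.33 CPM in LPE (log2 fold change -3.68, SE 0.38, adjusted p = 4e-06), and Hist1h1b fell by a log2 value of -1.19. Histone genes have near-identical copies, and their counts are uncertain.

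Many markers of other cell types had 0 counts in all 6 libraries, but some, such as Stmn2, were not low. Among interstitial matrix and fibroblast markers 11 of 24 had 0 counts in all 6 libraries, and their summed level was 98.6 to 137 CPM in T and 68.4 to 100.001 CPM in LPE, with Dcn, Lum and Col1a2 at 0. Col1a1 had 12.6, 21.4 and 0.465 CPM in T and 0 counts in LPE, and its part in any other difference was not tested. Neural markers summed to 505 to 526 CPM in T and 333 to 379.7 CPM in LPE, with Pax6 at 0, most of it Stmn2 (381, 404 and 396 CPM in T and 269, 224 and 242 CPM in LPE). Trophoblast markers summed to 251 to 308 CPM in T and 21.5 to 56.6 CPM in LPE, most of it Cdkn1c, which is also in the imprinted list, while Cdx2, Hand1 and Gata3 were at 0. Of endothelial and blood markers 9 of 22 were at 0, among them Ptprc, and the summed level was 201 to 202 CPM in T and 257 to 319.8 CPM in LPE. Runx1, a blood-forming factor, rose from 3.82, 5.79 and 6.51 CPM to 35.2, 39.8 and 47.8 CPM and Cdh5, a vascular cadherin, from 5.46, 5.79 and 5.58 CPM to 25.9, 46 and 17.3 CPM. Interferon and inflammatory genes gave 5 rises and 2 falls of 24, about the background share. B2m, the light chain of class I antigens, fell from 58.9, 53.3 and 45.6 CPM to 12.5, 6.22 and 6.09 CPM, and the factor gene Irf1 rose by log2 2.14.

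Some genes were seen in one medium only. With 0 counts in every T library, 4 genes had at least 5 CPM in LPE, and with 0 counts in every LPE library 40 genes had at least 5 CPM in T. Kif26a, a kinesin-like gene, had 38.2, 35.3 and 25.6 CPM in T and 0 counts in LPE, at least 34.7-fold lower, and Bin1, a membrane-curving protein gene, 24.6, 31.3 and 18.6 CPM and 0, at least 26.1-fold lower. Pon2, an intracellular lactonase gene, had 21.3, 22.6 and 23.7 CPM and 0, or 23.7-fold lower. These folds allow for counting error only, which understates the error of a 0 in LPE. In the other direction Ubash3a had 0 counts in T and 5.43, 16.2 and 7.05 CPM in LPE, with LPE replicate 2 the highest. The T libraries also listed more genes at low level, 511 to 791 genes with exactly 1 count per library against 26 to 58 in LPE, so a gene at 0 in LPE is read beside that gap, whose part was not tested.

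The miR-290 cluster, chosen after its values were seen, is one such set. It encodes microRNAs of early embryonic cells and lies within 2040 bases of rat chromosome 1 (RefSeq, GRCr8, minus strand, chr1:74878096-74880135), as 6 hairpin genes. Mir295-1, which lies just beyond them on the same strand, had 0 counts in all 6 libraries. Of the mature sequences of the cluster, 6 are printed 5′ to 3′, and miR-291a-5p and those of Mir293 are not. They are shown because the seed, bases 2 to 8, in capitals, sets which messengers a microRNA recognises. Some members also share a seed.
rno-miR-291a-3p: aAAGUGCUuccacuuugugugcc
rno-miR-291b: aAAGUGCAuccauuuuguuagu
rno-miR-292-3p: aAGUGCCGccagguuuugagugu
rno-miR-290: uCUCAAACuaugggggca
rno-miR-292-5p: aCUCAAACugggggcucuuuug
rno-miR-294: cUCAAAAUggaggcccuaucu
The seed CUCAAAC is shared by miR-290, miR-292-5p and miR-293-5p.
Mir291b had 15.8, 7.53 and 11.2 CPM in T, Mir294 7.09, 5.21 and 5.58, Mir291a 3.82, 6.37 and 12.1, Mir290 4.37, 6.95 and 3.72 and Mir292 4.37, 3.47 and 6.97. All 5 had 0 counts in every LPE library and were called lower (adjusted p = 0.0104 to 0.043), and Mir293 had 6 counts, all in T replicate 3, and was not tested. With each empty library set at 3 counts, Mir291b was 12.1-fold lower and Mir292 5.19-fold lower, which allows for counting error only. In CPE, Mir291b and Mir292 had 2.58 and 3.54 CPM in 1 library and 0 in the others. The levels were low, and without T replicate 1 all 5 calls were lost (adjusted p = 0.0503 to 0.108). Mir290, Mir291a, Mir292 and Mir294 also lost theirs without T replicate 2 (0.0636 to 0.139) or 3 (0.0945 to 0.138). Mir292 also lost its call without any 1 LPE library and Mir290 without LPE replicate 1 or 3 (0.0551 to 0.0844). These are reads over hairpin genes in libraries of total RNA, not mature microRNAs, and neighbours in 1 cluster are not independent. Of 11 hairpin genes tested these were the 5 called lower, and Mir1949 was the 1 called higher (10.4, 11 and 9.3 CPM in T and 36.1, 14 and 55.4 CPM in LPE).

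**Figure D5:**
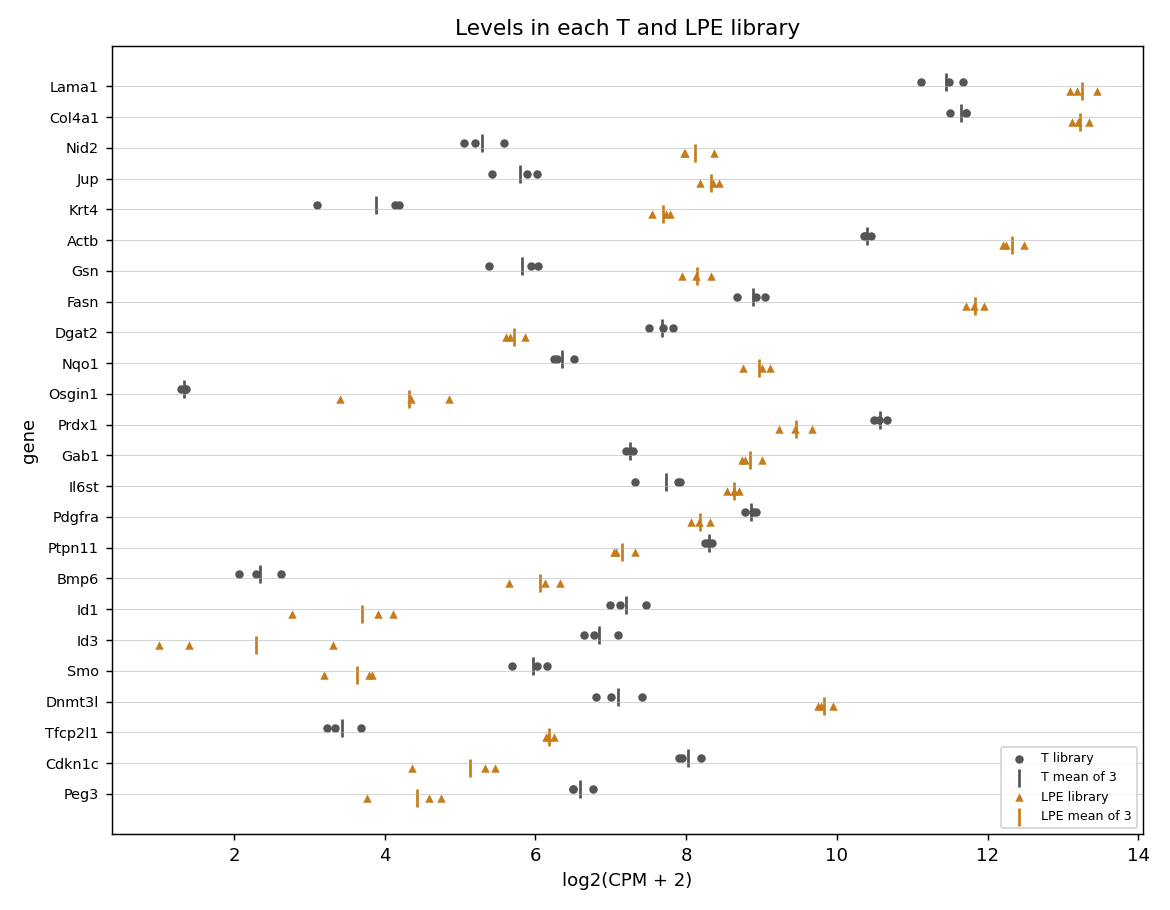
Level of 24 genes, as log2(CPM + 2), in each T library (grey circles) and LPE library (orange triangles), with the mean as a bar. The libraries of the 2 media do not overlap for any of the genes shown, and the LPE points of Id3, Osgin1 and Cdkn1c are spread more widely than those of Lama1 or Fasn.

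The values in CPE, which shares its serum-free base with LPE, are set beside these without a test against T, since the comparisons share libraries. Krt4 was at 201 ± 72.1 CPM (mean ± SD, n = 3) in CPE, Fasn at 2889.6 ± 514 CPM and Cdkn1c at 33.9 ± 6.21 CPM. For these 3 genes the difference between LPE and CPE did not pass the same edgeR test (adjusted p = 0.963, 0.0662 and 0.935). Dnmt3l, at 94.8 ± 18.3 CPM, Nid2, at 35.8 ± 9.04 CPM, and Tfcp2l1, at 14.9 ± 2.85 CPM in CPE, were lower there than in LPE, with log2 differences (LPE minus CPE) of 3.26, 2.95 and 2.24 (adjusted p = 7.2e-09, 2.2e-07 and 9.0e-05).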

How the data were processed

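Ribosomal RNA was removed and libraries were made with a directional kit and read in pairs of 101 cycles, per the labels' protocols. The submitters' processing notes name CASAVA 1.8.2, Trimmomatic 0.33, STAR 2.5.1, DESeq2 and the build rn6, while the gene annotation was not given in the sources used here. The authors deposited raw counts per gene and library, and the gene-strand column was used after the 4 summary rows (unmapped, multimapping, outside genes, ambiguous) were set aside. Genes passing edgeR's filterByExpr (minimum count 10, total 15) were TMM-normalized and fitted in all 9 libraries with a mean per medium (R 4.3.3, edgeR 4.0.16), and LPE minus T was tested by the quasi-likelihood F test, with Benjamini-Hochberg adjustment over all 9130 genes. The members and gene lists were chosen with earlier results of these data known, so a list's direction is not independent evidence. Genes named were the largest called changes, and the largest called rises and falls and the most abundant uncalled member of each list. Receptors for the media's factors and coatings were also named, but Itga2 and Itgav among them are not reported here. Others, such as Hmgcs1, Col1a1, Abca1 and the miR-290 cluster, were chosen after their values were seen. Lists are described by counts, medians and summed levels, and most of their members are not reported here. Intervals and floors cover counting error only. Sequences and hairpin positions are from RefSeq (GRCr8), a build other than that of the counts. Alternatives were RLE, upper-quartile and DESeq2 1.42.0 scaling, limma 3.58.1 voom, no filter, 6 libraries, either strand, thinning, a replicate block and leaving out each library.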

Additional observations from a re-analysis of the deposited data

Results flagged for a closer look

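The share of reads that mapped uniquely but outside genes, which no comparison above uses, was higher in the serum-free medium. It averaged 21.27% of all reads in LPE and 15.6567% in T, and ranged from 19.49% to 24.37% and from 13.9% to 17.02%, so the libraries did not overlap. Its part in the results above was not tested.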

How the results depend on the processing

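The number of genes called, 2716, was 2701 with RLE and 2714 with upper-quartile scaling, 2877 with DESeq2, 2952 with limma voom weighted by medium, which shifted the median of all genes by -0.119, 2718 without the filter, 2695 in the 6 libraries alone, 2674 counting either strand and 2718 after thinning. Leaving out 1 library gave 1896 to 2704 calls, 995 to 1407 higher, 892 to 1297 lower and 1017 to 1430 of at least 2-fold, and the 892 came without T replicate 3. Of the 2716 genes, 1881 to 1938 were also called without a T library and 2270 to 2345 without an LPE library. Restricted to genes of at least 50 CPM, an alternative chosen after seeing the data, 663 genes moved at least 2-fold, in 2088 called of 4102, where fewer genes were tested. The share of calls that were higher ran from 49.45% to 54.89% around 50.55%. Same-numbered T and LPE libraries had deviations correlated at r = -0.0039, -0.028 and 0.0040, and other pairs at -0.043 to 0.036. The wide spread in LPE could hide a shared effect, so these values cannot decide whether the numbers pair libraries. A fit with the replicate block called 2558 genes (1275 higher, 1283 lower). Of the 5 miR-290 cluster genes called lower, that fit did not call Mir290, Mir291a, Mir292 and Mir294 (adjusted p = 0.0613 to 0.109). Of 399 named genes, called or not, 318 stayed on their side of the threshold in every alternative run. At 1 to 10 CPM, where the spread between libraries was widest, 8.2% of tested genes were called. Some list medians depended on the filter or on the fit. Without the filter the median was 0.14 for immediate early genes, 0.68 for basement membrane genes, 0.63 for pluripotency factors and 0.25 for amino acid transporters. With it these were 0.79, 1.20, 1.29 and 0.55. The medians of cholesterol (0.60) and cytosolic ribosomal genes (-0.52) changed little. With the filter kept, limma voom moved the median of amino acid transporters to 0.23 and of primitive endoderm regulators from 0.62 to 0.08. It moved that of DNA methylation and Polycomb genes from 0.21 to -0.008. Immediate early genes (0.78) and pluripotency factors (1.27) changed little in limma voom.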
